A study of Homo sapiens with 8 samples.

Results

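KRT19 and 6 further keratins, KRT7, KRT8, KRT18, KRT20, KRT23, and KRT80, were followed across 4 constructs stably expressed in HEK293T, a human embryonic kidney cell line. These 7 genes were chosen by name together with the measured signal of KRT19 in these arrays, and they were represented by 10 of the 34127 non-control probes, through which 19483 genes could be named. KRT8, KRT18, and KRT23 had 2 probes each and the other 4 genes had 1. Because the choice rested on these signals, the values of the 7 genes are a description, with the fitted standard error (SE) and without a test. The SE pools the spread within all 4 constructs, so a probe has the same SE in every comparison.

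Gene expression was measured on 8 single-color Agilent arrays, 1 for each of 8 clones. Clones #1 and #2 carried the empty vector, clones #2 and #5 expressed TET1-CDwt, clones #3 and #10 MBD-TET1-CDwt, and clones #9 and #10 MBD-TET1-CDmut. TET1-CDwt is the wild-type catalytic domain of TET1, an enzyme that oxidizes 5-methylcytosine. MBD-TET1-CDwt carries the same domain behind the methyl-CpG-binding domain of MBD2, and MBD-TET1-CDmut is that fusion with a point mutation that abolishes catalysis. All 8 lines were expanded from single blasticidin S-resistant colonies, so each array is 1 clone and the spread within a group is the spread between 2 clones. Slide 1 held the arrays of empty vector and TET1-CDwt, and slide 2 those of the MBD fusions. For any comparison of a fusion with empty vector, slide and construct cannot be told apart. The wild-type and mutant fusions can be compared within slide 2, and TET1-CDwt and empty vector within slide 1.

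Signals are given as log2 intensity minus the 75th percentile of the array, called the normalized level below. That percentile lay between an intensity of 328 and 527. An array had 63.2% to 68.2% of its probes well above background, the lowest such level lay between -6.01 and -5.51 depending on the array, and no spot was saturated. Over the 9137 probes that were well above background on no array, the median difference was 0.37 for MBD-TET1-CDwt minus empty vector and 0.35 for MBD-TET1-CDmut minus empty vector, but 0.03 within slide 2 and -0.07 within slide 1. A difference of that size at a dim probe was thus common between the slides. Levels of different probes are printed side by side in places but were not compared as amounts of RNA. The 2 TET1 probes averaged between -1.49 and -0.80 and between 2.72 and 2.79 in the 4 groups. The files do not say which part of the transcript these probes cover, so they do not check the labels.

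Keratins are the intermediate filament proteins of epithelial cells. A filament is built from pairs of an acidic type I and a basic type II chain, and simple, single-layered epithelia use a small set of them. KRT8 (type II) and KRT18 (type I) form the primary pair, KRT7 (type II) and KRT19 (type I) are found in ducts and many glandular epithelia, and KRT20 and KRT23 are type I keratins of intestinal and other epithelia. KRT80 is a type II keratin found in several epithelia. KRT19 is the smallest keratin and lacks most of the tail domain of the others. Type I genes except KRT18 lie in a cluster on chromosome 17, and the type II genes lie with KRT18 in a cluster on chromosome 12.

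RefSeq windows of 250 bases before to 50 after a transcription start (GRCh38.p14) were at hand for 2 of the 7 keratins, KRT8 and KRT20. They are shown because the MBD of the fusions binds methylated CpG, and beside them stands the window of HPDL, chosen after its values were seen as the gene with the profile most like that of KRT19 among those with a window. Capitals mark each CG, the only motif searched, which reads the same on both strands. KRT8 lies on chromosome 12 (chr12:52926420-52926719, minus strand; RefSeq gives several starts for KRT8 and this is 1 of them), KRT20 on chromosome 17 (chr17:40885193-40885492, minus strand), and HPDL, a gene for a dioxygenase-like mitochondrial protein, on chromosome 1 (chr1:45326645-45326944, plus strand).
KRT8: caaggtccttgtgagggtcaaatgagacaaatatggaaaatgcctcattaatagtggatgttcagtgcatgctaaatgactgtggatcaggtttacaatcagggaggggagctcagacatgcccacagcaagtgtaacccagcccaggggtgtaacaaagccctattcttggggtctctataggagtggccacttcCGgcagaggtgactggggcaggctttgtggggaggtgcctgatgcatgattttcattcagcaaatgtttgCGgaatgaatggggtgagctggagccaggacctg
KRT20: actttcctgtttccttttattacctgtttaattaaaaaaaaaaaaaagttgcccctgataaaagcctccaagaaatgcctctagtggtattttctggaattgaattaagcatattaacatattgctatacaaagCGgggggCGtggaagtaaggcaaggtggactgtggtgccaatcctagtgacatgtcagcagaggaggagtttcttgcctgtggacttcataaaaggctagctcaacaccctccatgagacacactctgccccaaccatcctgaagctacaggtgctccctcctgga
HPDL: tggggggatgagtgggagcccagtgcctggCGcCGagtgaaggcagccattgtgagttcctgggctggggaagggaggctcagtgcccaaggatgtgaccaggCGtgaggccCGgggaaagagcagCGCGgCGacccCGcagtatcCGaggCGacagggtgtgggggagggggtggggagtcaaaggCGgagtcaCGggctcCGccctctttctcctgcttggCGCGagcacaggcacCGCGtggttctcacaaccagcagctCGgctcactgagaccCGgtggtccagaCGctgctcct

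The KRT8 and KRT20 windows held 2 CG each and the HPDL window 20. At least 2 CG were found in 88.5% of the 27305 windows of all genes and at least 20 in 41.2%. The median was 14 over all windows and 2, with a range from 0 to 8, over the 34 keratin genes with a window. No window of KRT19 was at hand, and methylation was not measured in these files.

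KRT19 was at the edge of detection in every line without the catalytically active fusion. Its normalized level was -5.25 and -5.02 in the 2 empty vector clones, both well above background, and -5.78 and -6.01 in the TET1-CDwt clones, neither of them well above background. It was -5.46 in MBD-TET1-CDmut #9, not well above background, and -4.65 in MBD-TET1-CDmut #10, well above it. In MBD-TET1-CDwt it was -0.27 in clone #3 and 2.53 in clone #10. As intensities, the 6 other arrays lay between 7.1 and 15.5, whereas MBD-TET1-CDwt #3 gave 289 and #10 gave 1886. Both clones of MBD-TET1-CDwt were above all 6 other arrays. How many of all probes show this order was not counted.

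The difference in KRT19 between MBD-TET1-CDwt and empty vector was 6.26 on the log2 scale (SE 0.80, n = 2 and 2), which is 76.7-fold and the 8th highest of the 22530 probes that entered the fit. This pooled SE understates the spread in MBD-TET1-CDwt, where the SD was 1.98, beside 0.17 in empty vector. Within slide 2, MBD-TET1-CDwt exceeded MBD-TET1-CDmut by 6.18 (SE 0.80), or at least 72.5-fold, since only 1 of the 2 MBD-TET1-CDmut arrays was well above background. A probe was counted as at least 2-fold higher where both arrays of the higher group were well above background. KRT19 was the only 1 of the 10 probes counted in MBD-TET1-CDwt over empty vector, where 0.809% of all probes were, and the only 1 counted over MBD-TET1-CDmut, where 0.85% were. KRT19 was chosen for its signal in these arrays, so its being counted follows from the choice and is no result. With normexp background correction the differences were 2.19 and 2.71, and the cause of this shift was not tested.

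The 2 MBD-TET1-CDwt clones were far apart. Clone #10 was 2.80 above clone #3 on the log2 scale, or 6.96-fold, and 0.608% of the 22530 probes were at least as far apart between these clones. Clone #3 alone was 29.1-fold and clone #10 alone 202-fold above the mean of empty vector. The size of the KRT19 difference therefore varied 6.96-fold with the clone. Background correction moved it as well, from 6.26 to 2.19 with normexp, and the empty vector signals lay near the floor. The direction of the difference was the same in both clones.

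In the other constructs the KRT19 signal stayed near the floor. TET1-CDwt minus empty vector was -0.76 (SE 0.80), a signal in empty vector at least 1.62-fold brighter than in TET1-CDwt, within slide 1. MBD-TET1-CDmut minus empty vector was 0.08 (SE 0.80) and became -0.04 without empty vector #1 and -0.33 without MBD-TET1-CDmut #10. In descending order the group means were 1.13 ± 1.98 (SD, n = 2) for MBD-TET1-CDwt, -5.05 ± 0.57 for MBD-TET1-CDmut, -5.13 ± 0.17 for empty vector, and -5.90 ± 0.16 for TET1-CDwt. The middle pair differed by less than its spread.

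In MBD-TET1-CDwt, none of the 10 probes was counted as at least 2-fold below empty vector (0.651% of all probes were) or below MBD-TET1-CDmut (0.721%). In TET1-CDwt against empty vector, 0 of the 10 were at least 2-fold higher or lower, where 0.231% and 0.372% of all probes were. In MBD-TET1-CDmut against empty vector, again 0 of the 10 were, where 0.24% and 0.273% of all probes were. With 10 probes, counts of 0 lie near these shares.

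The type I partner of the primary pair, KRT18, was strongly detected in all 8 clones. Its brighter probe (A_32_P151544) read 3.50 and 3.47 in empty vector, 3.59 and 3.27 in TET1-CDwt, 3.19 and 3.16 in MBD-TET1-CDwt, and 3.38 and 3.15 in MBD-TET1-CDmut. The second probe (A_24_P42136) read 1.46 and 1.29, 1.55 and 1.21, 1.03 and 1.03, and 1.39 and 1.10 in the same order. Both probes thus had their lowest group mean in MBD-TET1-CDwt. MBD-TET1-CDwt minus empty vector was -0.31 (SE 0.19) and -0.35 (SE 0.20), which is 1.24-fold and 1.27-fold lower in MBD-TET1-CDwt. These differences turned to 0.58 and 0.12 with normexp correction. Within slide 2 they were -0.09 and -0.22, about the size of the SE. In TET1-CDwt minus empty vector the probes gave -0.06 and 0.01, and in MBD-TET1-CDmut minus empty vector they gave -0.22 and -0.13.

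KRT8, the type II member of that pair, was read differently by its 2 probes. The brighter one (A_23_P14072) was well above background on every array, at 0.28 and -0.17 in empty vector, 0.74 and 0.39 in TET1-CDwt, 0.10 and 0.95 in MBD-TET1-CDwt, and -0.16 and -0.12 in MBD-TET1-CDmut. The groups of empty vector and MBD-TET1-CDwt overlapped, and their difference was 0.47 (SE 0.32). Within slide 2 the difference was 0.66 (SE 0.32), with both MBD-TET1-CDwt clones above both MBD-TET1-CDmut clones, and TET1-CDwt minus empty vector within slide 1 was 0.51 (SE 0.32). MBD-TET1-CDmut minus empty vector was -0.20. The dimmer KRT8 probe (A_24_P67395) was well above background on 5 of the 8 arrays. It ranged from -7.55 in empty vector #2 to -4.51 in MBD-TET1-CDwt #10, and the clones of empty vector were 2.84 apart, more than any group difference, the largest of which was 1.09.

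KRT7 (A_33_P3350748), which like KRT8 can pair with KRT19, had the narrowest range of the 10 member probes. It read 2.90 and 2.62 in empty vector, 2.80 and 2.85 in TET1-CDwt, 2.69 and 3.03 in MBD-TET1-CDwt, and 2.91 and 2.79 in MBD-TET1-CDmut. All 4 groups overlapped. The 4 differences lay between 0.01 and 0.10 (SE 0.20). With normexp correction they lay between 0.25 and 0.91, a setting that also moved the median of all tested probes by -0.36, from -0.02 to -0.38, in MBD-TET1-CDwt minus empty vector.

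KRT80 (A_24_P331704) was dim. In empty vector it read -5.36 in #1, well above background, and -7.98 in #2, not so. The TET1-CDwt clones read -7.98 and -7.92 and the MBD-TET1-CDmut clones -7.49 and -6.95, none of them well above background. Both MBD-TET1-CDwt clones were well above background, at -5.01 and -5.05, and above the other 6 arrays, of which empty vector #1 came closest. With dim signals at their bound, MBD-TET1-CDwt exceeded empty vector at least 1.58-fold and was at least 1.42-fold above MBD-TET1-CDmut. These bounds are under the 2-fold mark, and measured without bounds the differences were 1.65 and 2.19 (SE 0.74). With normexp correction the signs turned, to -1.18 and -0.58.

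The intestinal type I keratin KRT20 (A_23_P66854) was well above background on no array, with levels from -7.60 to -6.07. Neither was the second KRT23 probe (A_33_P3299761). The first KRT23 probe (A_23_P78248) was well above background on MBD-TET1-CDwt #3 alone, at -5.17, while the other 7 arrays lay between -8.24 and -7.75. No fold is given where both groups were below background. Counted over all 10 probes, 4 were well above background on every array, 4 on some arrays, and 2 on none, and 7 entered the fit.

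Across the constructs, then, 3 of the 4 keratins detected in both empty vector clones, KRT7, KRT8, and KRT18, differed by at most 0.66 in any comparison on the probes detected throughout, against 6.26 for KRT19. The order of the 4 groups also differed from gene to gene. MBD-TET1-CDwt had the highest mean for KRT19, KRT80, and KRT7, TET1-CDwt for the brighter KRT8 probe, and empty vector for the brighter KRT18 probe. The second KRT18 probe was highest in TET1-CDwt, at 1.382 beside 1.375 in empty vector. For KRT7, KRT8, KRT18, and KRT80 the leading mean exceeded the next by less than the wider gap between clones in those groups.

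The genes around KRT19 on chromosome 17 were examined for a difference of the same kind. In RefSeq order, KRT36, KRT13, and KRT15 were the nearest measured genes on one side and KRT9, KRT14, and KRT16 on the other. KRT15, a keratin of basal cells, read between -2.65 and -2.17 on all 8 arrays, and KRT9, a keratin of palm and sole skin, between -4.09 and -3.13. MBD-TET1-CDwt minus empty vector was -0.12 for KRT15 and 0.06 for KRT9 (limma, adjusted p = 0.947 and 0.988). KRT36, KRT13, and KRT14 were well above background on no array, and KRT16 only on MBD-TET1-CDwt #10, at -4.55. Of the 54 measured genes from KRT222 to KRT17, which include keratin-associated proteins of hair, 29 were well above background on at least 1 array and 17 on all. Of these 54, KRT19 alone was counted as at least 2-fold above empty vector in MBD-TET1-CDwt, and in the chromosome 12 cluster, from KRT80 to KRT18, 0 of 27 measured genes were counted. The share of all probes was 0.809%, so counts of 0 among the other genes lie near the background.

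Other keratins served as the comparison for the 7. Of 48 listed keratin genes 46 had a probe, 11 were well above background on all arrays, and 23 on none. In the fit, 16 probes were tested and 0 were called in any of the 4 comparisons by limma with Benjamini-Hochberg adjustment (smallest adjusted p = 0.68), nor by any alternative. At an unadjusted p under 0.05 there was 1, KRT32, with a difference of -0.61 in MBD-TET1-CDwt minus empty vector (adjusted p = 0.68). Over all tested probes, limma called 0.115% in MBD-TET1-CDwt against empty vector, 0.102% against MBD-TET1-CDmut, and 0% in TET1-CDwt or MBD-TET1-CDmut against empty vector. The median difference of the 16 probes was -0.07, -0.03, -0.13, and -0.12 in the 4 comparisons, beside -0.02, 0.01, -0.03, and -0.03 for all tested probes. At an unadjusted p under 0.05 were 6.6%, 6.84%, 2.5%, and 2.68% of all tested probes in the same order.

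The other keratins with the largest differences, counting only probes that both clones of the higher group detected, were KRT222 (-0.80), KRT32, KRT39 (-0.50), KRT26 (-0.39), KRT33A (-0.25), and KRT10 (0.19), none of which passed the test. KRT83, a hair keratin, differed by 0.46 but was not well above background in MBD-TET1-CDwt #3, and it was 1.20 above MBD-TET1-CDmut, where neither array detected it. KRT222 is a short keratin-like protein, KRT32, KRT39, and KRT33A belong to hair, KRT26 to the inner root sheath, and KRT10 to differentiated epidermis. KRT10 read between 3.12 and 3.51 on all 8 arrays, again with all 4 groups close together. KRT222 lay between -3.30 and -1.25, with MBD-TET1-CDwt #10 the lowest and clone #3 of the same construct at -1.44.

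Keratin filaments are anchored at desmosomes and hemidesmosomes by plakins and armadillo proteins. Of 24 such genes 16 were well above background on all arrays, and 24 probes were tested. limma called 0 of them in each comparison, with 1, 3, 0, and 1 at an unadjusted p under 0.05 (shares over all tested probes 6.6%, 6.84%, 2.5%, and 2.68%), and their median difference was -0.11, -0.11, -0.03, and 0.09. EPPK1 (epiplakin, which binds keratin filaments) read -3.89 and -3.23 in empty vector and -2.60 and -2.38 in MBD-TET1-CDwt. The difference of 1.07 did not pass the test (adjusted p = 0.738). Within slide 2 it was 0.36, with MBD-TET1-CDmut #9 at -2.35. The desmosomal genes JUP (plakoglobin) and DSC2 differed by -0.58 and -0.47, and the plakin PLEC by 0.43. A DSC3 probe differed by -0.40 and a probe of the plakin DST (A_23_P59388) by -0.68. The adjusted p of these probes lay from 0.815 to 0.905. The DST probe well above background on all arrays (A_23_P303718) differed by 0.22, and the remaining DST probe (A_33_P3339650) by -0.41. JUP was low in MBD-TET1-CDwt #3 alone, at 0.90, where the other 7 arrays lay between 2.01 and 2.28. Within slide 2, the DSC3 probe named above (A_33_P3266898) was at least 2-fold below MBD-TET1-CDmut, at -1.01, and did not pass the test (adjusted p = 0.508). The other DSC3 probe (A_24_P344416) differed by -0.43 from MBD-TET1-CDmut (adjusted p = 0.701) and by -0.34 from empty vector.

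Genes of simple epithelium outside the keratins were examined for a difference alongside KRT19. Of 36 listed genes 35 had a probe and 23 were well above background on all arrays, and 28 probes were tested. limma called 0 in each comparison, with 3, 4, 0, and 0 at an unadjusted p under 0.05 (beside the same shares over all tested probes), and the median difference was 0.12, -0.03, 0.01, and 0.14. ESRP2, an epithelial splicing regulator, read -3.95 and -3.62 in empty vector, -2.74 in MBD-TET1-CDwt #3, and -0.55 in #10. It lay between -4.12 and -3.77 in the other 4 clones. Both clones of MBD-TET1-CDwt were thus above the 6 other arrays, an order not counted over all probes. The differences of 2.14 against empty vector (adjusted p = 0.601) and 2.43 against MBD-TET1-CDmut (adjusted p = 0.524) did not pass the test.

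EPCAM, an epithelial adhesion molecule, differed by 2.05 (adjusted p = 0.797). It read -0.23 in MBD-TET1-CDwt #10 but -3.14 in #3, where empty vector read -3.01 and -4.46, so the groups overlapped. Of the 28 probes, 12 were highest of the 8 arrays in clone #10 and 2, for AP1M2 and TJP1, were lowest there, whereas 14.7% and 17.4% of all tested probes were. In clone #3, 2 were highest and 13 lowest, beside 24.1% and 22% of all tested probes. Among the 12 were CDH3 (P-cadherin) at -0.41, TFAP2C, a transcription factor of epithelial and germ cells, at -1.07, and SPINT2, a protease inhibitor, at 3.83. The tight junction genes CLDN7 and OCLN differed by 0.92 and -0.92 (adjusted p = 0.879 and 0.69). Within slide 2, both OCLN probes were at least 2-fold below MBD-TET1-CDmut, at -1.09 and -1.01, and did not pass the test (adjusted p = 0.603 and 0.628). Without clone #3, limma called 1 probe of the list against empty vector and 1 against MBD-TET1-CDmut, and without clone #10 it called 2 against MBD-TET1-CDmut. Over all probes the calls in these fits were 97, 75, and 143, beside 26 and 23 with all clones.

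Of 13 markers of simple epithelium, 7 were well above background on all arrays (KRT7, KRT8, KRT18, EPCAM, CLDN4, CLDN7, and MUC1), whereas ESRP1, GRHL2, and ELF3 were so on none. Of 6 markers of stratified epithelium only KRT10 was detected, and of 8 mesenchymal markers 6 were detected on all arrays, with FN1 and COL1A2 on none. HEK293T thus carried transcripts of both kinds in each construct.

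The genes whose profile was most like that of KRT19 were found by Pearson's r over the 8 arrays among 13691 genes detected in both clones of MBD-TET1-CDwt. The 10 highest were TCF15 (r = 0.9936), HPDL (0.9928), TDRD9 (0.992), COL2A1 (0.9915), MEIOC (0.9914), PRSS21 (0.9898), DMRTB1 (0.9887), CRABP1 (0.9884), RIOX1 (0.9883), and CRIP1 (0.9864), and 28 genes exceeded 0.95. These values rest on the 2 MBD-TET1-CDwt arrays, and over the 6 other arrays r lay between -0.03 and 0.85. They are given as a description without a p-value.

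None of the 10 is a keratin. The shares of keratins and of germ cell genes among all genes compared were not counted. TDRD9 and MEIOC act in meiosis of germ cells, PRSS21 is a testis protease, and DMRTB1 is a germ cell transcription factor. TCF15 is a transcription factor of early mesoderm, COL2A1 is the collagen of cartilage, and CRABP1 binds retinoic acid. HPDL read -5.91 and -5.33 in empty vector, -0.22 in MBD-TET1-CDwt #3, and 1.72 in #10, a difference of 6.37 that is close to that of KRT19. COL2A1 read -8.00 and -8.22 in empty vector, neither well above background, and -4.29 and -1.73 in the 2 MBD-TET1-CDwt clones. Because the 10 were chosen for their likeness to KRT19, their low, higher, and highest arrays follow from the choice. The gap between clones #10 and #3 was 1.10 to 2.56 on the log2 scale, beside 2.80 for KRT19. In 5 of the 10 neither empty vector array was well above background. The 7 of them with a RefSeq window held a median of 20 CG, from 8 to 41, as in the HPDL window printed above.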

How the data were processed

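RNA of 8 HEK293T clones, 2 for each of 4 constructs, was labeled with Cy3 and hybridized to Agilent arrays. The authors deposited the intensity of each spot as processed by Feature Extraction (version 10.7.3.1 per the file headers, 9.5.1 in the submitters' processing notes), on a linear scale after background subtraction and without scaling to other arrays. The series table repeated these values in all 44495 rows. Per the file headers the design was annotated on hg19.

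Control spots and 213 to 269 outlier spots per array were left out, log2 intensities were averaged per probe, and the 75th percentile of the array was subtracted. A probe was well above background when over 50% of its spots were. Accessions were named through RefSeq (GRCh38.p14) for 25422 of 34127 probes (74.5%). limma 3.58.1 in R 4.3.3 was fitted to 4 group means (4 residual degrees of freedom) over the 22530 probes that 1 or more groups detected on both arrays, at a Benjamini-Hochberg adjusted p of 0.05. At least 2-fold was counted where both arrays of the higher group were well above background, with dim signals at no less than the lowest signal well above background. Tested on simulated data (MBD-TET1-CDwt over empty vector, 22530 probes), limma recovered 174 of 200 probes changed by 3 on the log2 scale, made 7 false calls, and made 0 calls without change. The simulation gave each probe the same spread in all groups. In the data, MBD-TET1-CDwt #3 was the highest array for 24.1% and the lowest for 22% of tested probes. The simulated counts therefore do not give the power of the fit for that construct. Python 3.11.15, numpy 2.4.6, pandas 2.3.3, and matplotlib 3.10.9 were used.

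The 7 keratins, the gene lists, and the rules were chosen with earlier results of these data known. Named are the 7 keratins, list genes called by limma and up to 6 with the largest difference of MBD-TET1-CDwt from empty vector among probes that both clones of the higher group detected, 3 measured neighbors on each side of KRT19, the 10 genes of highest r, and TET1. KRT83, CDH3, AP1M2, TJP1, KRT17, KRT23 as a neighbor, and the genes of the closing section were named after their values were seen. The precision is limited by 2 arrays a group. Alternatives were other background correction, scaling, filters, and fits, and leaving out each clone. Probe positions, proteins, and the bisulfite and growth experiments were not analysed here.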

Additional observations from a re-analysis of the deposited data

How the results depend on the processing

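No paired analysis was possible, since the clones of each construct were isolated independently and a shared clone number marks no pair. Slide could not be fitted as a term, since each construct lies on 1 slide. For KRT19, leaving out each clone in turn gave 4.86 to 7.66 for MBD-TET1-CDwt minus empty vector, 4.78 to 7.58 for MBD-TET1-CDwt minus MBD-TET1-CDmut, -0.88 to -0.64 for TET1-CDwt minus empty vector, and -0.33 to 0.49 for MBD-TET1-CDmut minus empty vector. Normexp background correction (offset 50) used the median spot signals, since the files used here hold no mean signals, and was added after seeing the data. It gave 2.19, 2.71, -1.67, and -0.51 for these 4 differences, and it moved the median of the tested probes from -0.02 to -0.38 in the first. Quantile normalization moved TET1-CDwt minus empty vector from -0.76 to -0.58. The cause of these shifts was not tested. Quantile and median scaling and placing dim signals at the floor changed the 2 MBD-TET1-CDwt differences of KRT19 by less than the spread between clones. Of 432 alternative values of the other 9 keratin probes, 397 moved by less than the spread between clones and 51 changed sign, 31 of them at the 5 dim probes of KRT8, KRT20, KRT23, and KRT80. Of the counts of list probes, 177 did not move and 3 did. Leaving out 1 clone gave 0 to 1 calls of simple epithelium probes against empty vector and 0 to 2 against MBD-TET1-CDmut, where the lone clone left is assumed to vary like the other groups. Over all probes, calls for MBD-TET1-CDwt against empty vector numbered 23 higher and 3 lower in the fit reported, 0 with normexp correction, and 2 with only the 4 arrays compared. They were 83 and 14 without MBD-TET1-CDwt #3, 36 and 58 without #10, 10 and 0 without empty vector #1, 7 and 1 without empty vector #2, and 12 and 0 without either MBD-TET1-CDmut clone. Signals near the floor have no order, which limits KRT19 outside MBD-TET1-CDwt, KRT80, KRT20, and KRT23.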

Other observations

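RefSeq lists 5 pseudogenes of KRT19, 52 of KRT8, and 68 of KRT18, and 1 of each was measured under its own name. The probe of KRT19P2 was well above background only on the 2 MBD-TET1-CDwt arrays, at -5.09 in #3 and -2.23 in #10, at least 4.76-fold above empty vector and at least 3.65-fold above MBD-TET1-CDmut. Its r with KRT19 over the 8 arrays was 0.9742, the 16th highest. Whether this probe bound KRT19 RNA was not tested. KRT18P55 was detected on all arrays and differed by -0.36 between MBD-TET1-CDwt and empty vector, where the KRT18 probes differed by -0.31 and -0.35. KRT8P41 was well above background on no array.

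Keratin-associated proteins, which cross-link keratins in hair, had 100 probes for 82 genes, of which 45 probes were tested. limma called 0 of them in each comparison, where it called 0.115%, 0.102%, 0%, and 0% of all tested probes. At an unadjusted p under 0.05 were 1, 6, 1, and 1 of the 45, beside 6.6%, 6.84%, 2.5%, and 2.68% of all tested probes. By size, KRTAP19-1, KRTAP20-2, KRTAP21-1, and KRTAP21-2 exceeded empty vector at least 2-fold both in TET1-CDwt and in the mutant fusion, and none of the 100 probes did in MBD-TET1-CDwt, beside 0.231%, 0.24%, and 0.809% of all probes. In MBD-TET1-CDwt, 2 of the 100 were at least 2-fold below empty vector and 5 below MBD-TET1-CDmut, beside 0.651% and 0.721%. KRTAP19-1 read 1.66 and 0.54 in empty vector, 0.59 and 4.59 in TET1-CDwt, -0.19 and -0.07 in MBD-TET1-CDwt, and 3.86 and 2.54 in MBD-TET1-CDmut. The TET1-CDwt mean rested on clone #5, since clone #2 lay within the range of empty vector, and both comparisons share the empty vector arrays.

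Of 16 listed mesenchymal genes 15 had a probe, and 16 probes of 12 genes were tested. limma called 0 in each comparison, beside 0.115%, 0.102%, 0%, and 0% of all tested probes. At an unadjusted p under 0.05, 2, 3, 2, and 0 were higher and 1, 2, 0, and 1 lower in the 4 comparisons. The shares over all tested probes were 6.6%, 6.84%, 2.5%, and 2.68%. S100A4, a calcium-binding protein, differed by 1.00 between MBD-TET1-CDwt and empty vector, and the transcription factors SNAI1 and SNAI2 by 0.80 and 0.60, with adjusted p of 0.863, 0.743, and 0.753. Within slide 2, S100A4 and SNAI2 were at least 2-fold above MBD-TET1-CDmut, by 1.65 and 1.02, and did not pass the test (adjusted p = 0.69 and 0.466). SPARC and COL1A1, of the extracellular matrix, differed by 0.41 and 0.38 between MBD-TET1-CDwt and empty vector, and a ZEB1 probe by -0.46. In TET1-CDwt minus empty vector, SNAI1 differed by 0.90, SNAI2 by 0.48, SPARC by 0.56, and COL1A1 by 0.69. S100A4 differed by 0.17 and the ZEB1 probe by -0.10 in that comparison.

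In MBD-TET1-CDwt #10 alone, CLDN3 (-2.97) was well above background. PKP3, a desmosomal plakophilin, had its highest level in that clone, -0.46, against -6.13 and -6.07 in empty vector and -5.69 in MBD-TET1-CDwt #3. In MBD-TET1-CDmut, PKP3 read -5.36 in #9 and -4.77 in #10, where it was also well above background.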
